A study of Mus musculus with 8 samples.

Results

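The glycolysis enzymes and lactate dehydrogenases described here are 10 genes read over 4 populations of mouse CD4 T cells sorted for a Foxp3 reporter. They were chosen by name, with earlier results of these data known. All 10 were among the 24108 named genes of the count table and among the 13989 that passed the filter on low counts. They comprise the glucose transporter gene Slc2a1, the enzyme genes Hk2, Pfkp, Aldoa, Tpi1, Pgam1, Eno1 and Pkm, and the lactate dehydrogenase genes Ldha and Ldhb.

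Foxp3 defines regulatory T (Treg) cells, and its gene lies on the X chromosome. All samples carried 1 strain label, Foxp3DTR-GFP/Thy1.1CD4CreER/wtR26lsl-tdTomato/wt, so every population shares a toxin receptor with GFP and a Thy1.1 reporter at Foxp3, a tamoxifen-inducible Cre under CD4 control and a tdTomato reporter that Cre switches on. Mice were raised with AVNM (an abbreviation left unexplained by the labels) and on food with defined amino acids. They received tamoxifen and diphtheria toxin over about 3 weeks, then chow and a fecal microbiota, and cells were sorted from mesenteric lymph nodes 12 days later. Among cells with the tdTomato mark, those with GFP and those with Thy1.1 were sorted apart, and so were those without the mark, which gives tdTomato+ GFP+ cells, tdTomato+ Thy1.1+ cells, and their tdTomato- counterparts, with 2 libraries for each of the 4 populations. The tdTomato mark is meant for CD4 T cells outside the thymus that lacked Foxp3 when tamoxifen was given. CD4 control of Cre marks any cell that expresses CD4 at that time, and the toxin acts on cells that carry the receptor of the GFP allele. The labels give no ages, numbers of mice or pooling.

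Glycolysis splits glucose into pyruvate and yields ATP in the cytosol. Lactate dehydrogenase then turns pyruvate into lactate and regenerates the NAD+ that glycolysis needs, and the enzyme is a tetramer of A subunits from Ldha and B subunits from Ldhb. Activated and dividing T cells take up more glucose and carry out more glycolysis than resting ones, while resting and naive T cells rely more on mitochondrial oxidation. Foxp3 is known from other work to restrain glycolysis in Treg cells.

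Library totals were 38085686 to 47908198 counts, and the 2 libraries of a population correlated across genes with r of 0.968 to 0.986 on the log2 scale. Foxp3 was at 126 to 201 CPM (counts scaled by TMM to a common library size), and Cd4 and Cd3e were at 301 CPM or more in every library. Foxp3 was at 126 and 141 CPM in tdTomato+ GFP+ cells, against 186 and 187 CPM in tdTomato+ Thy1.1+ cells. It was called lower there (log2 fold change -0.48; edgeR quasi-likelihood test, adjusted p = 0.0314), and Cd4 was called higher (0.56; 0.00742). The part of Foxp3 in the results below was not tested. Levels of 8 proliferation genes summed to 861 and 702 CPM in tdTomato+ GFP+ cells, 222 and 197 CPM in tdTomato+ Thy1.1+ cells, 453 and 349.6 CPM in tdTomato- GFP+ cells, and 228 and 232 CPM in tdTomato- Thy1.1+ cells. Markers of other cells were uneven. The 6 dendritic and myeloid genes summed to 101 CPM in tdTomato- GFP+ library 3, to 28.2 CPM in tdTomato+ GFP+ library 3 and to 1.62 to 10.4 CPM in the other libraries. The 2 erythroid genes measured reached 44.9 CPM in tdTomato+ GFP+ library 3 and 5.05 CPM in library 4 of those cells, against at most 2.51 CPM elsewhere. The sums were 8.19 to 42.3 CPM for 4 B cell genes, 16.7 to 122 CPM for 4 CD8 and NK cell genes, and 12.4 to 55.4 CPM for 4 epithelial and stromal genes. The last 2 were highest in tdTomato+ GFP+ library 3, where 1 gene made up most of each. Nkg7 was at 116 CPM there, with Klrb1c at 5.53, Cd8a at 0.541 and Ncr1 at 0. Epcam was at 46.7 CPM there, with Col1a1 at 7.83, Krt18 at 0.88 and Col3a1 at 0.0226. Siglech, a plasmacytoid dendritic cell marker, was at 0 counts in 5 libraries and at 36.8 CPM in tdTomato- GFP+ library 3. H2-Aa was at 0 in tdTomato+ GFP+ library 3. The part of these cells in the results below was not tested beyond refits without single libraries and without both GFP+ libraries numbered 3. The libraries are bulk RNA, so a change in how many cells express a gene and a change of RNA per cell cannot be told apart.

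The sequence 250 bases upstream of the start was read for each member from RefSeq (build GRCm38.p6), and all 10 matched. Where RefSeq gives several starts, the one nearest the principal transcript of GENCODE M21 was used. Shown are the lactate dehydrogenase pair, which moved in opposite directions, and Pgam1 and Hk2, which hold the motif ACGTG. That motif is a form of the core of the hypoxia response element bound by HIF factors. The other form, GCGTG, was not searched. CACGTG, which contains ACGTG, is the E-box bound by MYC. Both strands were searched, and matches are in capitals. The windows are chr7:46846832-46847081 on the plus strand, chr6:142507958-142508207 on the minus strand, chr19:41911621-41911870 on the plus strand and chr6:82774455-82774704 on the minus strand, each written 5′ to 3′ along the gene.
Ldha: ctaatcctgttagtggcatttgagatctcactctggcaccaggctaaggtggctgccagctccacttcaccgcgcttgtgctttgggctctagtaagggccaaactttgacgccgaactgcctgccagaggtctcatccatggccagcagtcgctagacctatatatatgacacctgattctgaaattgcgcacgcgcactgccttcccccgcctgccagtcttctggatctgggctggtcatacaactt
Ldhb: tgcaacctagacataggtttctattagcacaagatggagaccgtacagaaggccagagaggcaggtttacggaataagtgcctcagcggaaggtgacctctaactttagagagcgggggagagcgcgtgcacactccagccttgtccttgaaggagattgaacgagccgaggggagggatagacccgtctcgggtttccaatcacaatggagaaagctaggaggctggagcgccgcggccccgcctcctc
Pgam1: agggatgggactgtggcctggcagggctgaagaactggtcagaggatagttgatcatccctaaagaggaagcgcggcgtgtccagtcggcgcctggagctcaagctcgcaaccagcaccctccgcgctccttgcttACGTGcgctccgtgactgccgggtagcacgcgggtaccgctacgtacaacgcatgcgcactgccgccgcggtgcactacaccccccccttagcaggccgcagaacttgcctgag
Hk2: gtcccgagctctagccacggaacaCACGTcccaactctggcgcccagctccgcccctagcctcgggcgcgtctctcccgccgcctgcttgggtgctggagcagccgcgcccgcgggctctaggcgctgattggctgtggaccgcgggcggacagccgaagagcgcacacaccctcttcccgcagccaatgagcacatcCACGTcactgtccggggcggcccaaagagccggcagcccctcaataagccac
ACGTG was present upstream of 4 of the 10 members, namely Slc2a1, Hk2, Aldoa and Pgam1, and CACGTG upstream of 0. Over all 16 windows that RefSeq gives for the members, 7 held ACGTG (43.8%) and 1 held CACGTG (6.25%). Aldoa and Eno1 have 3 windows each and Pkm and Ldha 2 each, so these windows are not independent. Over all 32851 windows of this length, 16.6% held ACGTG and 6.02% held CACGTG. Of the 4 genes with ACGTG, 2 were higher in tdTomato+ GFP+ than in tdTomato+ Thy1.1+ cells and 2 were not called, and Ldha, Pkm, Tpi1 and Pfkp were higher there without it in this window. A match is a string of letters and not a binding site. Since GCGTG was not searched, a window without ACGTG can still hold a HIF core, as that of Ldha does on the other strand.

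Ldha and Pkm were among the most abundant transcripts of these cells. By mean CPM, Ldha ranked 20 and Pkm 26 of 13989 genes in tdTomato+ GFP+ cells, against 86 and 89 in tdTomato+ Thy1.1+ cells. Per kb of exon, Ldha led the members in every population, with 484 CPM per kb in tdTomato+ GFP+ cells, 239 in tdTomato+ Thy1.1+ cells, 346 in tdTomato- GFP+ cells and 253 in tdTomato- Thy1.1+ cells. Pkm and Aldoa followed in each, and Hk2 was last in each, at 0.348 to 1.13 CPM per kb. Between these ends the order varied: Ldhb was the ninth member by level per kb in tdTomato+ GFP+ cells and the fourth in both Thy1.1+ populations. In tdTomato+ GFP+ cells the neighbours Pfkp, at 23 to 26.4 CPM per kb, and Eno1, at 23.4 to 24.4, did not differ beyond their spread. In tdTomato+ Thy1.1+ cells the same held for Eno1, at 19.5 to 22.4, Slc2a1, at 17.2 to 21.3, and Pgam1, at 17 to 18.9. In tdTomato- GFP+ cells it held for Ldhb with Pgam1 and for Slc2a1 with Pfkp, and in tdTomato- Thy1.1+ cells for Pfkp with Pgam1. Summed over the 10 members, the counts were 0.469% and 0.437% of the scaled library in tdTomato+ GFP+ cells, 0.257% and 0.26% in tdTomato+ Thy1.1+ cells, 0.337% and 0.283% in tdTomato- GFP+ cells, and 0.26% and 0.254% in tdTomato- Thy1.1+ cells.

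**Figure D1:**
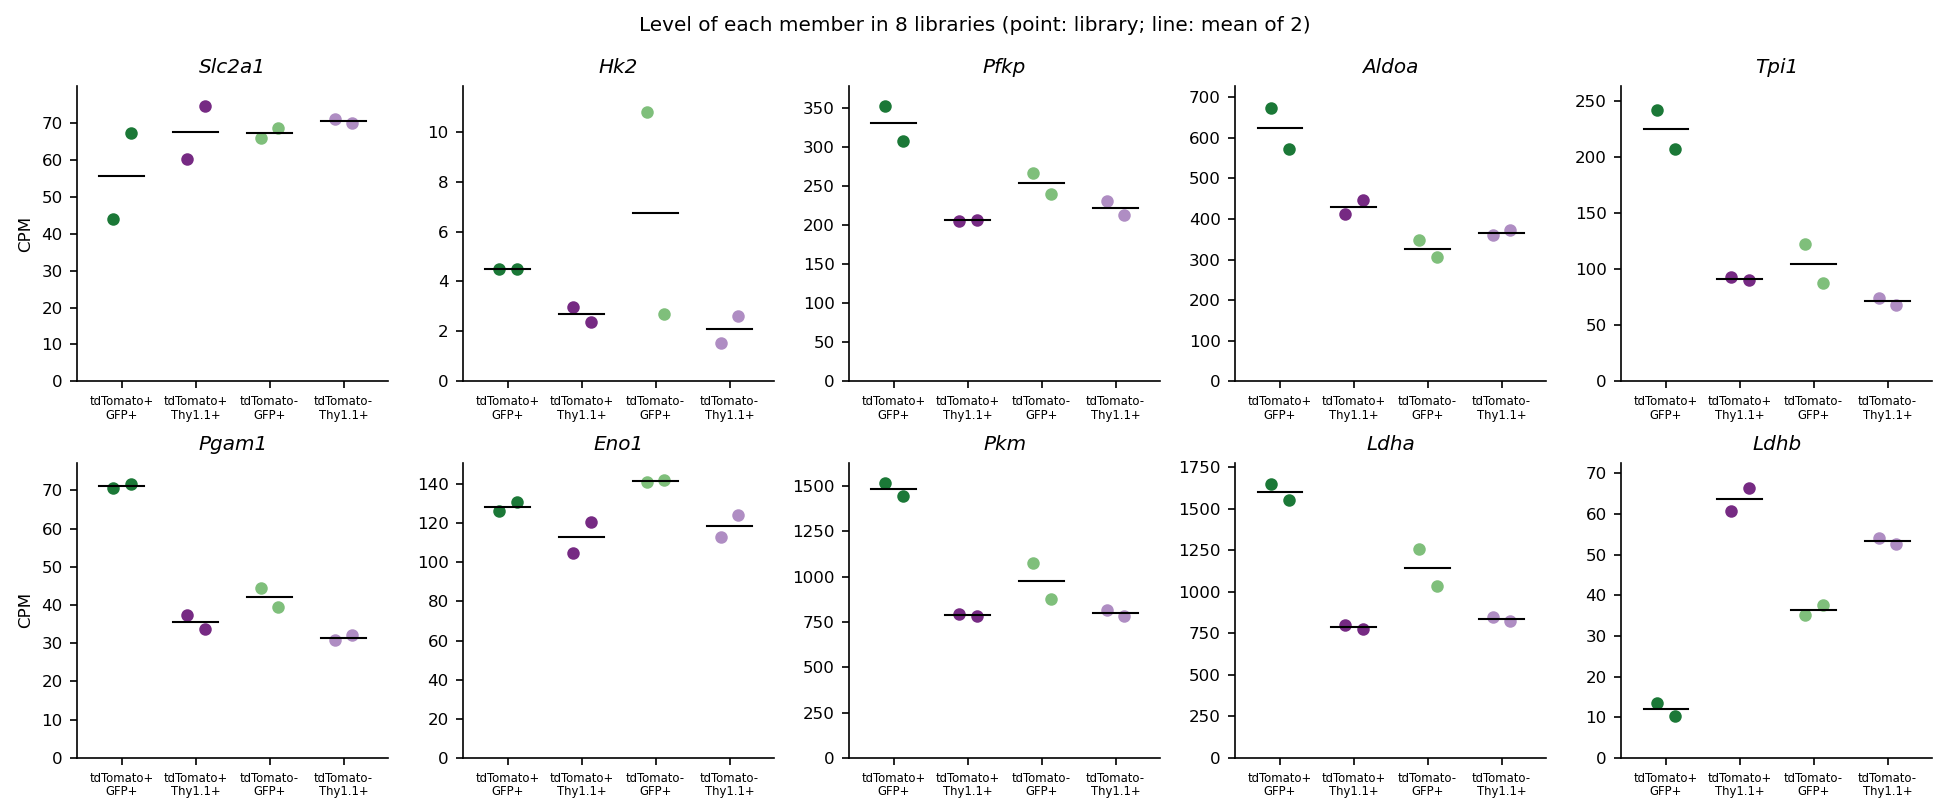
Level of each of the 10 members in CPM (y axis, from 0) in the 4 populations (x axis), with a point per library and a line at the mean of the 2 libraries. Ldha, Pkm, Pfkp, Aldoa, Tpi1 and Pgam1 are highest in both tdTomato+ GFP+ libraries, and Ldhb is lowest there.

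The first comparison asked how cells with the tdTomato mark differed by the Foxp3 reporter they expressed. Tpi1, Ldha, Pgam1, Pkm, Pfkp and Aldoa rose in tdTomato+ GFP+ cells relative to tdTomato+ Thy1.1+ cells, by 1.45-fold to 2.45-fold, and Ldhb fell to 0.188 of its level. Of the 10 members, 6 were higher, against a background of 8.01% of all genes tested, and 1 was lower, against 6.82% (edgeR quasi-likelihood test, adjusted p under 0.05; 14.8% in either direction). Slc2a1, Hk2 and Eno1 were not called. The members' median log2 fold change was 0.72, and that of all genes was -0.005.

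Tpi1, Pgam1 and Pkm act after aldolase. Tpi1 encodes triosephosphate isomerase, which interconverts the triose phosphates made by aldolase. It was at 242 and 207 CPM in tdTomato+ GFP+ cells, against 92.7 and 90.6 CPM in tdTomato+ Thy1.1+ cells, a log2 fold change of 1.29 ± 0.17 (SE, 2 libraries each; edgeR adjusted p = 0.00334). Pgam1, the phosphoglycerate mutase gene, was at 70.6 and 71.6 CPM in tdTomato+ GFP+ cells, against 37.4 and 33.7 CPM in tdTomato+ Thy1.1+ cells, 2-fold higher (edgeR adjusted p = 0.00484). In both genes the GFP+ libraries lay above both Thy1.1+ libraries with a gap wider than the spread within either pair. Pkm encodes the pyruvate kinase that makes pyruvate in T cells, and gene counts do not separate its M1 and M2 splice forms. It was at 1515 and 1446 CPM in tdTomato+ GFP+ cells, against 791 and 780.5 CPM in tdTomato+ Thy1.1+ cells (0.91 ± 0.10; edgeR adjusted p = 0.0021).

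Pfkp and Aldoa, which act before the triose stage, had smaller fold changes. Pfkp, the platelet-type phosphofructokinase that catalyses a committed step, was at 353 and 308 CPM in tdTomato+ GFP+ cells, against 206 and 207 CPM in tdTomato+ Thy1.1+ cells (0.68 ± 0.10; edgeR adjusted p = 0.00619). Aldoa, the aldolase that splits fructose bisphosphate, was at 674 and 573 CPM in tdTomato+ GFP+ cells, against 412 and 447 CPM in tdTomato+ Thy1.1+ cells (0.54 ± 0.11; edgeR adjusted p = 0.0154). In both the pairs did not overlap, but single libraries decided the call. Aldoa was not called without tdTomato+ GFP+ library 3 (0.37; edgeR adjusted p = 0.0911), without tdTomato+ Thy1.1+ library 1 (0.42; 0.161) or without Thy1.1+ library 2 (0.55; 0.084). Pfkp was not called without Thy1.1+ library 1 (0.62; edgeR adjusted p = 0.0716) or library 2 (0.63; 0.0628), and Pgam1 was not called without Thy1.1+ library 2 of those cells (0.88; 0.0625). Tpi1, Pkm, Ldha and Ldhb passed with any 1 of the 8 libraries left out.

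The lactate dehydrogenase genes moved in opposite directions. Ldha, whose A subunit favours the step from pyruvate to lactate, was at 1650.2 and 1553 CPM in tdTomato+ GFP+ cells, against 801 and 778 CPM in tdTomato+ Thy1.1+ cells (1.02 ± 0.10; edgeR adjusted p = 0.0014). Ldhb, whose B subunit favours the reverse step, was at 13.5 and 10.4 CPM in tdTomato+ GFP+ cells, against 60.8 and 66.4 CPM in tdTomato+ Thy1.1+ cells (-2.41 ± 0.18; edgeR adjusted p = 0.000699). Ldhb had the largest change of the 10 members in this comparison. Per kb of exon, Ldhb made up 1.69% and 1.39% of the 2 genes' sum in tdTomato+ GFP+ cells, against 13.8% and 15.2% in tdTomato+ Thy1.1+ cells. In tdTomato- cells the share was 5.55% and 7.12% with GFP, between the marked populations, and 11.8% in both libraries with Thy1.1. With 2 libraries a population an exact two-sided permutation test of such a share cannot give a p below 0.333, so none is given. The shares were lower with the longest transcript as the length, at 1.12% and 0.923% in tdTomato+ GFP+ cells and 9.56% and 10.6% in tdTomato+ Thy1.1+ cells.

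**Figure D2:**
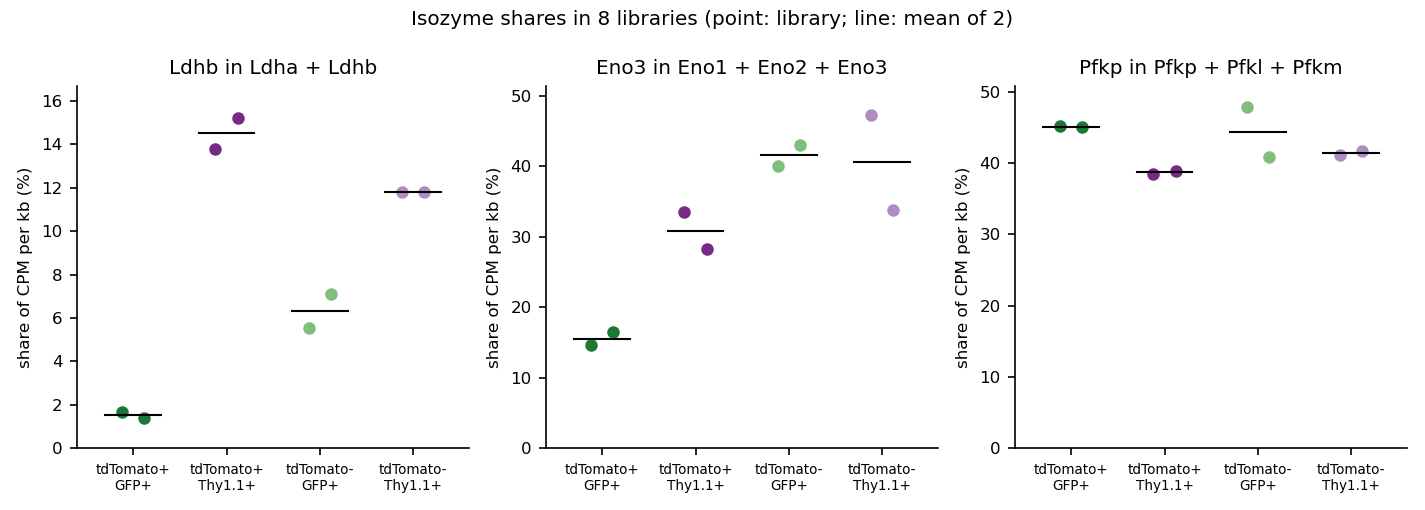
Share of 1 isozyme in the summed CPM per kb of its family (y axis, percent, from 0) in the 4 populations (x axis), with a point per library and a line at the mean of 2, for Ldhb, Eno3 and Pfkp. The Ldhb share is 1.39% and 1.69% in tdTomato+ GFP+ cells and above 5% elsewhere, and the Eno3 share is lowest in the same cells.

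The entry of glucose and its first phosphorylation showed no call. Slc2a1, the glucose transporter GLUT1 that T cells raise on activation, was at 44.0 and 67.3 CPM in tdTomato+ GFP+ cells, against 60.3 and 74.6 CPM in tdTomato+ Thy1.1+ cells (-0.28 ± 0.20; edgeR adjusted p = 0.416). Hk2, an inducible hexokinase, was at 4.51 CPM in both tdTomato+ GFP+ libraries, against 2.99 and 2.38 CPM in tdTomato+ Thy1.1+ cells (0.75 ± 0.69; edgeR adjusted p = 0.525). The Slc2a1 pairs overlapped and the Hk2 pairs did not. Eno1, the main enolase of most tissues, was at 126 and 131 CPM in tdTomato+ GFP+ cells, against 105 and 120.5 CPM in tdTomato+ Thy1.1+ cells (0.19 ± 0.11; edgeR adjusted p = 0.298). The direction of Slc2a1 was not stable: without both GFP+ libraries numbered 3 its log2 fold change was 0.00044.

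The second comparison asked what set marked cells apart from unmarked ones with the same GFP reporter, and it shares the tdTomato+ GFP+ libraries with the first. Aldoa, Tpi1, Pgam1, Pkm, Ldha and Pfkp rose in tdTomato+ GFP+ cells relative to tdTomato- GFP+ cells, and Ldhb fell. Thus 6 of 10 members were higher, against 6.24% of all genes, and 1 was lower, against 6.4% (12.6% in either direction). The members' median log2 fold change was 0.43, and that of all genes was 0.029. Aldoa was at 674 and 573 CPM in tdTomato+ GFP+ cells, against 348 and 306 CPM in tdTomato- GFP+ cells (0.93 ± 0.11; edgeR adjusted p = 0.00292). Tpi1 was at 242 and 207 CPM in tdTomato+ GFP+ cells, against 122 and 87.3 CPM in tdTomato- GFP+ cells (1.11 ± 0.17; edgeR adjusted p = 0.00721). The Aldoa log2 fold change was 0.93 here and 0.54 between the reporters, while that of Ldha was 0.48 here and 1.02 there.

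Ldhb was at 13.5 and 10.4 CPM in tdTomato+ GFP+ cells, against 35.1 and 37.6 CPM in tdTomato- GFP+ cells (-1.61 ± 0.17; edgeR adjusted p = 0.00237). Ldha was at 1650.2 and 1553 CPM in tdTomato+ GFP+ cells, against 1259 and 1033 CPM in tdTomato- GFP+ cells (0.48 ± 0.10; edgeR adjusted p = 0.02). Both pairs were apart, in opposite directions. The other calls were Pkm (0.60 ± 0.10; edgeR adjusted p = 0.0105), Pgam1 (0.76 ± 0.14; 0.0158) and Pfkp (0.38 ± 0.10; 0.0494). Slc2a1, Hk2 and Eno1 were again not called, at -0.27, -0.57 and -0.14. The calls of Aldoa, Tpi1, Pkm and Ldhb held with any 1 library left out. Ldha was not called without tdTomato+ GFP+ library 3 (0.40; edgeR adjusted p = 0.0941), without tdTomato- GFP+ library 4 (0.31; 0.088) or without any 1 of the 4 Thy1.1+ libraries (0.44 in each; 0.052 to 0.056). Pgam1 was not called without tdTomato+ GFP+ library 3 (0.72; edgeR adjusted p = 0.0541) or tdTomato- GFP+ library 4 (0.63; 0.107). With 1 library left out, Pfkp passed only without tdTomato+ GFP+ library 4, and without each of the other 7 its edgeR adjusted p was 0.0597 to 0.277. With all libraries it also missed the threshold under RLE size factors (edgeR adjusted p = 0.0558), library totals (0.0725) and no filter on low counts (0.0759). Fitted to these 4 libraries alone, 2 members were called, and 300 genes in all. Proliferation genes moved the same way in both comparisons, with 8 of 8 higher in the first and 4 of 8 in the second, and 0 lower in either. Their part in the members' changes was not tested.

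**Figure D3:**
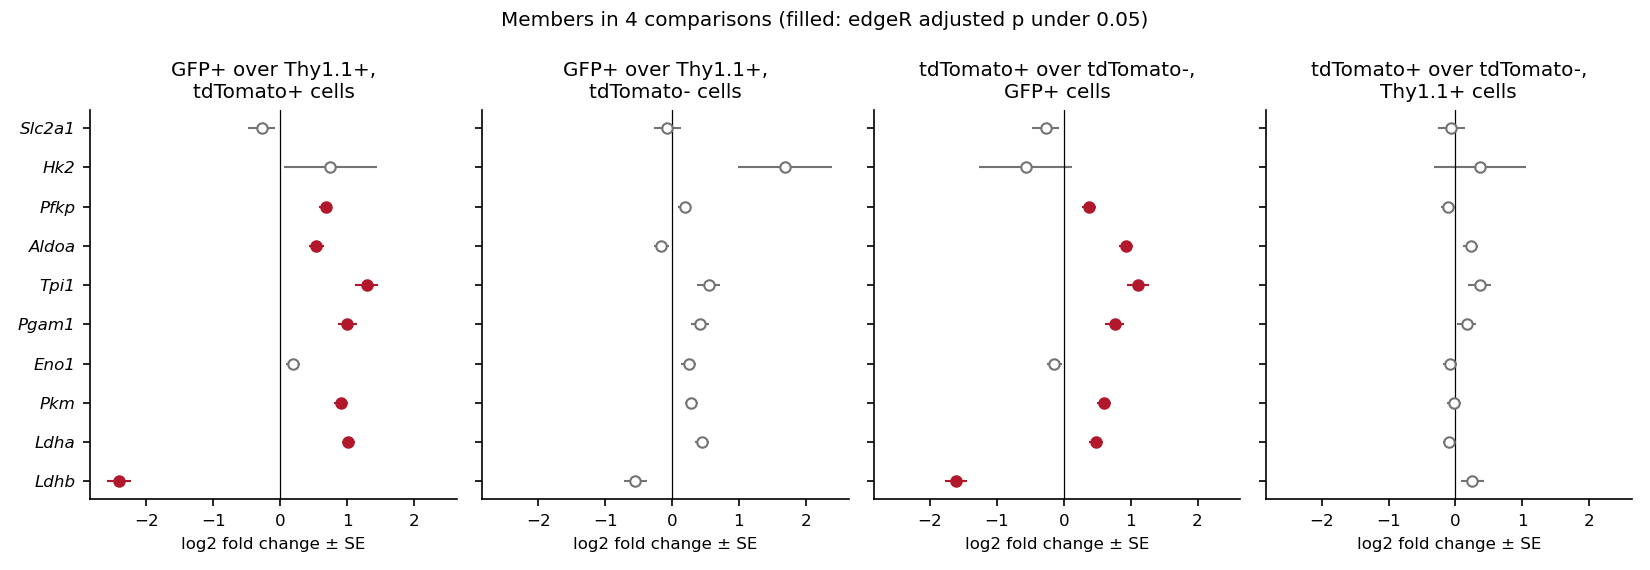
Log2 fold change ± SE (x axis) of the 10 members (y axis) in 4 comparisons between populations of 2 libraries each, with filled points where the edgeR adjusted p is under 0.05. The 7 filled genes are the same in the panels for tdTomato+ cells and for GFP+ cells, and the other panels have none.

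In unmarked cells, GFP+ against Thy1.1+, no member passed. The edgeR test called 0 of 10 (0.164% of all genes were called). An unadjusted edgeR p under 0.05 was found for 6 members and for 1662 of all 13989 genes tested. DESeq2 called 2 members, Ldha and Tpi1, and 581 genes in all. Ldha was at 1259 and 1033 CPM in tdTomato- GFP+ cells, against 851 and 826 CPM in tdTomato- Thy1.1+ cells (0.45 ± 0.10; edgeR adjusted p = 0.126). Ldhb was at 35.1 and 37.6 CPM in tdTomato- GFP+ cells, against 54.2 and 52.6 CPM in tdTomato- Thy1.1+ cells (-0.55 ± 0.17; edgeR adjusted p = 0.244). Both pairs were apart in the direction seen in marked cells. Tpi1 was at 122 and 87.3 CPM in tdTomato- GFP+ cells, against 74.7 and 68.3 CPM in tdTomato- Thy1.1+ cells (0.55 ± 0.17; edgeR adjusted p = 0.246). Aldoa had the other sign, with 348 and 306 CPM in tdTomato- GFP+ cells and 359.6 and 372 CPM in tdTomato- Thy1.1+ cells (-0.16 ± 0.11; edgeR adjusted p = 0.603). Hk2 was at 10.8 and 2.68 CPM in tdTomato- GFP+ cells, against 1.55 and 2.62 CPM in tdTomato- Thy1.1+ cells. Its high value came from tdTomato- GFP+ library 3, the library with the dendritic cell markers. Without tdTomato- GFP+ library 4, Ldha was called (0.59; edgeR adjusted p = 0.0308).

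Within Thy1.1+ cells the mark made no detectable difference to the members. The edgeR test called 0 of 10 for tdTomato+ against tdTomato- Thy1.1+ cells, with 0% of all genes called, and 0 members had an unadjusted p under 0.05. Over all genes, 1063 had an unadjusted p under 0.05, and DESeq2 called 148, of which 0 were members. The log2 fold changes lay between -0.11 for Pfkp and 0.37 for Hk2. Ldha was at 801 and 778 CPM in tdTomato+ Thy1.1+ cells, against 851 and 826 CPM in tdTomato- Thy1.1+ cells (-0.09 ± 0.10; edgeR adjusted p = 0.91). Ldhb was at 60.8 and 66.4 CPM in tdTomato+ Thy1.1+ cells, against 54.2 and 52.6 CPM in tdTomato- Thy1.1+ cells (0.25 ± 0.17; edgeR adjusted p = 0.79). The sign of Ldhb was thus opposite to that within GFP+ cells.

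The interaction tested whether the reporter difference itself was larger in marked than in unmarked cells. Of the 10 members, 0 were called higher, against 0.0929% of all genes, and 1 was called lower, against 0.35% (0.443% in either direction). That gene was Ldhb, whose log2 difference between reporters was -2.41 in tdTomato+ cells and -0.55 in tdTomato- cells, an interaction of -1.86 ± 0.24 (edgeR adjusted p = 0.0228). Its call was lost without any 1 of the 4 Thy1.1+ libraries (-1.985 to -1.851; edgeR adjusted p from 0.0899 to 0.153) and without tdTomato- GFP+ library 4 (-1.87; 0.0805). The interaction was 0.70 for Aldoa, 0.63 for Pkm and 0.57 for Ldha (edgeR adjusted p = 0.129, 0.139 and 0.159). DESeq2 called these 3 and Ldhb, and 568 genes in all. Without tdTomato- GFP+ library 3, Ldha (0.72; edgeR adjusted p = 0.0412) and Pkm (0.78; 0.0345) were called besides Ldhb.

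Across the 8 libraries the 6 members that rose in tdTomato+ GFP+ cells varied together. Their log2 CPM had pairwise Pearson r from 0.62, for Ldha with Aldoa, to 0.98, and Ldhb had r from -0.97 to -0.71 with them. These values describe 8 libraries in 4 populations and are dominated by the difference between populations. The 6 genes were picked by their calls in these same libraries. Such r values, and lower ones for members without a call, follow largely from that choice. The 3 members without a call varied differently. Slc2a1 had r from -0.70 to -0.61 with the 6, Hk2 from 0.18 with Aldoa to 0.65 with Ldha, and Eno1 from -0.14 with Aldoa to 0.56 with Ldha. Among 10201 other genes with a mean of at least 5 CPM, those most like Ldha were Pcdh9 (r = 0.995), Ltb4r1, a leukotriene B4 receptor gene (r = 0.995), and the mitotic kinase gene Aurkb (r = 0.993). Those most like Ldhb were the tetraspanin gene Cd81 (r = 0.995), AB124611 (r = 0.994) and Tmem158 (r = 0.991).

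Other glycolysis genes gave the remaining steps of the pathway. Of 20 listed, 16 were tested, and in tdTomato+ GFP+ against tdTomato+ Thy1.1+ cells 4 were higher and 2 lower, with a median log2 fold change of 0.01, where 8.01% of all genes were higher and 6.82% lower. The 4 were Gpi1, which isomerizes glucose 6-phosphate (0.50 ± 0.09; edgeR adjusted p = 0.0095), Aldoc (1.26 ± 0.29; 0.0246), Gapdh (0.80 ± 0.13; 0.00798) and Pgk1, the first ATP-yielding step (0.88 ± 0.16; 0.0101). Gapdh was at 348 and 325 CPM in tdTomato+ GFP+ cells, against 192 and 194 CPM in tdTomato+ Thy1.1+ cells. Together with the members, each step from the isomerase to lactate except enolase thus had at least 1 gene that was called higher. Eno1, Gapdh and Pgk1 share sequence with other gene models, and how reads from shared sequence were counted is not known. The missing call of Eno1 therefore does not show that enolase was unchanged. All 4 calls were lost without either tdTomato+ Thy1.1+ library, with edgeR adjusted p from 0.0698 to 0.211, and Aldoc was also lost without tdTomato+ GFP+ library 4 or either tdTomato- Thy1.1+ library.

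The 2 that fell were the enolases Eno2 and Eno3. Eno2, known as the neuronal enolase, had 1 count in the 2 tdTomato+ GFP+ libraries together, against 359 counts in tdTomato+ Thy1.1+ cells and 296 in tdTomato- GFP+ cells. The ratio was 0.00316 of tdTomato+ Thy1.1+ cells (95% counting interval 7.99e-05 to 0.0177; edgeR adjusted p = 0.00573) and 0.0038 of tdTomato- GFP+ cells (9.58e-05 to 0.0213; edgeR adjusted p = 0.00786). Eno3, known from muscle, was at 6.95 and 8.38 CPM in tdTomato+ GFP+ cells, 17.8 and 15.8 CPM in tdTomato+ Thy1.1+ cells, 31.1 and 35.8 CPM in tdTomato- GFP+ cells, and 33.4 and 20.9 CPM in tdTomato- Thy1.1+ cells. It fell relative to tdTomato+ Thy1.1+ cells (-1.13 ± 0.27; edgeR adjusted p = 0.0277) and relative to tdTomato- GFP+ cells (-2.13 ± 0.27; 0.00419). The share of Eno1 in the 3 enolases per kb was 85.4% and 83.5% in tdTomato+ GFP+ cells and 51.9% to 69.3% elsewhere. With the longest transcript as the length, the Eno1 share was 93.3% and 92.3% in tdTomato+ GFP+ cells and 71.9% to 83.8% elsewhere, and that of Eno3 was 6.67% and 7.64% in tdTomato+ GFP+ cells and 14.3% to 27.4% elsewhere. The first Eno3 call was lost without tdTomato+ GFP+ library 3 (-1.06; edgeR adjusted p = 0.0946) or either tdTomato+ Thy1.1+ library (-1.10 and -1.27; 0.137 and 0.0911).

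Isozymes of the early steps gave 1 call, that of Pfkl within GFP+ cells. Hk1 was at 242 to 274 CPM in all libraries and made up at least 92.5% of hexokinase per kb. Slc2a3, the transporter GLUT3, was at 132 and 113 CPM in tdTomato+ GFP+ cells, against 154 and 150 CPM in tdTomato+ Thy1.1+ cells (-0.31 ± 0.13; edgeR adjusted p = 0.161). Pfkl was at 185 and 150 CPM in tdTomato+ GFP+ cells, against 120 and 126 CPM in tdTomato+ Thy1.1+ cells (0.44 ± 0.13; edgeR adjusted p = 0.0626), and it was called against tdTomato- GFP+ cells (0.54 ± 0.13; 0.0388). Pfkm was at 14.5 and 18.9 CPM in tdTomato+ GFP+ cells, against 21.9 and 18.0 CPM in tdTomato+ Thy1.1+ cells (-0.26 ± 0.29; edgeR adjusted p = 0.608). Hk3 had 0 counts in both tdTomato+ GFP+ libraries, which allows up to 0.0677 and 0.0806 CPM by counting error, and 2.49 CPM in tdTomato- GFP+ library 3. Within GFP+ cells the list gave 4 higher and 2 lower genes, against 6.24% and 6.4% of all genes, namely Gpi1, Pfkl, Gapdh and Pgk1, and Eno2 and Eno3. With 1 library left out there, Eno2 and Eno3 kept their calls, Gpi1 lost its call without tdTomato- GFP+ library 4 (0.50; edgeR adjusted p = 0.0622), Gapdh without that library (0.54; 0.0513) or tdTomato+ GFP+ library 3 (0.67; 0.0531), Pgk1 without any library but tdTomato- GFP+ library 3, and Pfkl without any but tdTomato+ GFP+ library 4. In tdTomato- cells between reporters, within Thy1.1+ cells and in the interaction, 0 of 16 passed by edgeR.

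**Figure D4:**
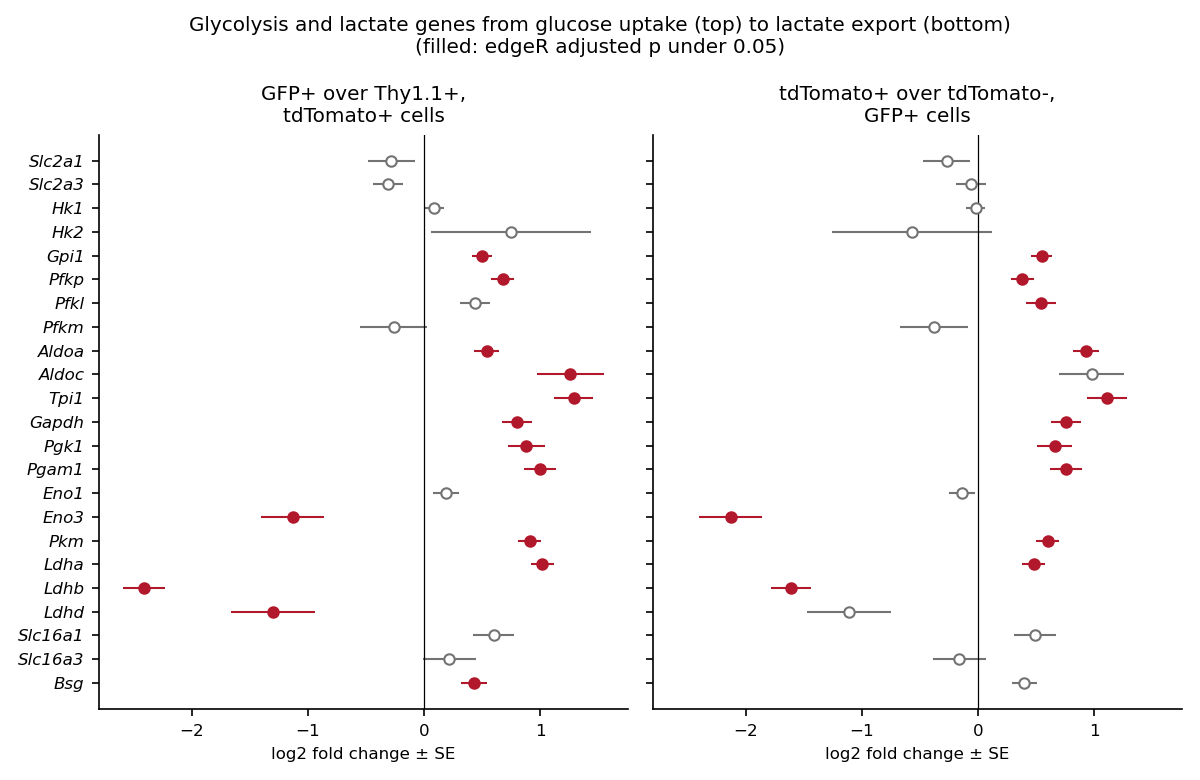
Log2 fold change ± SE (x axis) of glycolysis and lactate genes (y axis, from glucose uptake at the top to lactate export at the bottom) for tdTomato+ GFP+ over tdTomato+ Thy1.1+ cells and for tdTomato+ GFP+ over tdTomato- GFP+ cells, with filled points where the edgeR adjusted p is under 0.05. Filled genes from Gpi1 to Ldha lie to the right of 0 except Eno3, Ldhb lies to the left, and Eno2, with 1 count in tdTomato+ GFP+ cells, is not drawn.

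Among genes that handle pyruvate and lactate, the kinase gene Pdk1 had the firmest call. In tdTomato+ GFP+ against tdTomato+ Thy1.1+ cells, 1 of 18 tested was higher and 3 were lower, with a median log2 fold change of 0.01, against 8.01% higher and 6.82% lower over all genes. Bsg, the chaperone of lactate transporters, was higher (0.43 ± 0.11; edgeR adjusted p = 0.0384). Pdk1, a kinase that inhibits pyruvate dehydrogenase, was at 50.2 and 59.2 CPM in tdTomato+ GFP+ cells, against 99.4 and 96.6 CPM in tdTomato+ Thy1.1+ cells (-0.84 ± 0.12; edgeR adjusted p = 0.00537). Ldhd, a mitochondrial D-lactate dehydrogenase gene, was also lower (-1.30 ± 0.36; edgeR adjusted p = 0.0468). Pdk2, a related kinase gene, was at 11.2 and 3.95 CPM in tdTomato+ GFP+ cells, against 24.8 and 24.5 CPM in tdTomato+ Thy1.1+ cells (-1.70 ± 0.44; edgeR adjusted p = 0.0393). The size of its change rested on single libraries, at -2.692 without tdTomato+ GFP+ library 3 and -1.147 without library 4. Pdk1 was lower within GFP+ cells too (-1.06 ± 0.12; edgeR adjusted p = 0.00309), the 1 call of the list there. The lactate transporter gene Slc16a1 was at 62.9 and 90.3 CPM in tdTomato+ GFP+ cells, against 50.1 and 50.9 CPM in tdTomato+ Thy1.1+ cells (0.60 ± 0.18; edgeR adjusted p = 0.0586). Slc16a3, another lactate transporter gene, was at 16.2 and 16.6 CPM in tdTomato+ GFP+ cells, against 14.2 and 13.9 CPM in tdTomato+ Thy1.1+ cells (0.22 ± 0.23; edgeR adjusted p = 0.57). The call of Pdk1 held with any 1 library left out in both comparisons, while Bsg was lost without any 1 of 6 libraries (all but tdTomato+ GFP+ library 4 and tdTomato- GFP+ library 3) and with library totals as the scale (0.37; edgeR adjusted p = 0.0705), Pdk2 without any Thy1.1+ library, and Ldhd without any 1 of the 8.

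Of 16 regulators, 2 were higher and 2 lower in tdTomato+ GFP+ against tdTomato+ Thy1.1+ cells, with a median log2 fold change of -0.20. Over all genes 8.01% were higher and 6.82% lower, so the counts are close to the background, and the 4 genes are given for their own values. Hif1a, a transcription factor that drives glycolysis genes in low oxygen, was at 657 and 774 CPM in tdTomato+ GFP+ cells, against 451 and 480 CPM in tdTomato+ Thy1.1+ cells (0.62 ± 0.10; edgeR adjusted p = 0.008). Egln3, a prolyl hydroxylase that HIF factors induce, was at 59.3 and 67.7 CPM in tdTomato+ GFP+ cells, against 30.4 and 19.2 CPM in tdTomato+ Thy1.1+ cells (1.36 ± 0.31; edgeR adjusted p = 0.026). Myc, which drives glycolysis genes in activated T cells, went the other way, with 130 and 170 CPM in tdTomato+ GFP+ cells, against 241 and 274 CPM in tdTomato+ Thy1.1+ cells (-0.78 ± 0.17; edgeR adjusted p = 0.0214). Txnip, which restrains glucose uptake, was at 464 and 543 CPM in tdTomato+ GFP+ cells, against 1024 and 1004 CPM in tdTomato+ Thy1.1+ cells (-1.01 ± 0.12; edgeR adjusted p = 0.00251). The same 4 genes passed in the same directions within GFP+ cells, at 0.47 for Hif1a, 1.28 for Egln3, -0.92 for Myc and -0.73 for Txnip (edgeR adjusted p = 0.0247, 0.036, 0.0152 and 0.00928). Txnip kept its call in both comparisons with any 1 library left out. Between the marked populations Hif1a, Myc and Egln3 lost theirs without either tdTomato+ Thy1.1+ library (edgeR adjusted p from 0.064 to 0.18). Myc and Egln3 also lost it without tdTomato+ GFP+ library 3 (0.0749 and 0.0641), and Egln3 without library 4 (0.0729). Within GFP+ cells Hif1a was called in 1 of 8 such fits, the one without tdTomato+ GFP+ library 3, Egln3 in the 2 without a tdTomato- Thy1.1+ library, and Myc in all but those without tdTomato+ GFP+ library 3 or tdTomato- GFP+ library 4.

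Genes of 2 neighbouring pathways were also compared. Of 7 pentose phosphate genes, 1 was higher in tdTomato+ GFP+ than in tdTomato+ Thy1.1+ cells and 0 were lower, with a median log2 fold change of 0.35 (all genes 8.01% higher, 6.82% lower, median -0.005). That gene was Taldo1, the transaldolase, at 316 and 297 CPM in tdTomato+ GFP+ cells, against 174 and 194 CPM in tdTomato+ Thy1.1+ cells (0.73 ± 0.11; edgeR adjusted p = 0.00623). Its call was lost without tdTomato+ Thy1.1+ library 1, where the log2 fold change was 0.60. Of 17 TCA cycle genes, 6 were higher and 0 lower, with a median of 0.25, against the same shares over all genes. They were led by Fh1, the fumarase gene (0.88 ± 0.13; edgeR adjusted p = 0.00621), Idh3a (0.70 ± 0.14; 0.0164), Cs, the citrate synthase gene (0.48 ± 0.10; 0.0167), and Sdhb (0.48 ± 0.11; 0.0256). Suclg2 (-0.71 ± 0.24; edgeR adjusted p = 0.094) and Sdha (-0.28 ± 0.09; 0.0653) were among those with the other sign, and were not called. Within GFP+ cells, 1 pentose phosphate gene and 2 TCA cycle genes were higher and 0 were lower. Over all genes 6.24% were higher there and 6.4% lower, so these counts are close to the background. The pentose phosphate gene was again Taldo1. Its call within GFP+ cells was lost without tdTomato+ GFP+ library 3 (0.47) or tdTomato- GFP+ library 4 (0.46). It was also lost in the fit to the GFP+ libraries alone (0.52; edgeR adjusted p = 0.0812). TCA cycle genes were not followed in the refits with single libraries left out.

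Several members share sequence or exons with other gene models, which limits their absolute levels and their shares of an isozyme family. The effect of this sharing on fold changes and calls was not tested. Some 50-base words in annotated transcripts of the members also occur in transcripts of another gene model. These made up 36.2% for Pgam1, 26% for Eno1, 25.8% for Pkm, 21% for Ldhb, 9.03% for Ldha, 5.13% for Aldoa and 4.18% for Tpi1. Slc2a1, Hk2 and Pfkp share 0%. Of the other glycolysis genes called higher, Gapdh shares 24.7% and Pgk1 53.9%. Eno1b, the near-identical copy of Eno1, had 0 counts in every library, and Aldoart1, a copy of Aldoa, had 182 to 423 counts per library. Exons of Pfkp, Aldoa, Tpi1, Slc2a1 and Pkm overlap those of Pitrm1, Fam57b, Spsb2, Gm12868 and Gm49759. The kit does not mark strand, so reads in these overlaps cannot be assigned to 1 gene.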

How the data were processed

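PolyA RNA of sorted cells was amplified with SMART-Seq v4 in 12 cycles and made into KAPA libraries with 8 PCR cycles, read as paired ends of 50 nt, per the labels' protocols. Values are whole-number counts per gene as deposited, without normalization by the authors. No source used here names an aligner, a counter or a genome build, and the submitters' processing notes name DESeq. Of 24116 rows, 8 had no gene name (0.0215% to 0.0264% of counts) and were left out. The GFP columns are numbered 3 and 4 where the sample titles say 1 and 2, so they were matched by population and keep the table's numbers.

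Genes were filtered with edgeR 4.0.16 (R 4.3.3) at a minimum count of 10, leaving 13989. All 8 libraries were scaled by TMM (factors 0.978 to 1.02) and fitted in 1 quasi-likelihood model with a mean per population (4 residual degrees of freedom, biological coefficient of variation 0.399). P-values of 5 contrasts were adjusted by the Benjamini-Hochberg method over all genes, with a threshold of 0.05, and standard errors come from the F statistic. Correlations used log2 CPM with 0.5 added. DESeq2 1.42.0 was an alternative. Since no label ties libraries to separate mice, the p-values reflect only the scatter of these libraries, which may be technical. The source of GFP+ and Thy1.1+ cells cannot be told apart from the reporter. Counting intervals and the limit of 3 counts cover counting error only, at 95% confidence.

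The members, 13 gene lists and tests were chosen with earlier results of these data known. Besides the members, the text names from each metabolic list up to 4 genes with the smallest adjusted p in a comparison and the isozyme partners, and the 3 genes most like Ldha and Ldhb among those of at least 5 CPM. Single marker genes and the copies of members were chosen after their values were seen. Lengths and overlaps came from GENCODE M21. The model was tested on simulated counts of independent libraries, which cannot show the effect of shared mice, pooling or a batch.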

Additional observations from a re-analysis of the deposited data

Results flagged for a closer look

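The difference between the reporters in Ldhb depended on the tdTomato mark by the test of the interaction. Ldhb was lower in GFP+ than in Thy1.1+ cells by -2.41 ± 0.18 on the log2 scale in tdTomato+ cells and by -0.55 ± 0.17 in tdTomato- cells, a difference of -1.86 ± 0.24 (edgeR adjusted p = 0.0228, 2 libraries per population). It was the 1 gene of the 6 metabolic lists with such a call. Across the alternatives the difference lay between -2.12 and -1.69, with an adjusted p from 1.17e-08 to 0.153.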

How the results depend on the processing

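Calls of Tpi1, Pkm, Ldha and Ldhb in tdTomato+ GFP+ against tdTomato+ Thy1.1+ cells held under all 17 alternatives. With 1 library left out, members called numbered 4 to 7 there, 4 to 7 within GFP+ cells, 0 to 1 between tdTomato- populations, 0 within Thy1.1+ cells and 0 to 3 in the interaction. Over all genes these ranges were 481 to 2118, 458 to 1801, 0 to 75, 0 and 0 to 119, against 2074, 1768, 23, 0 and 62 with all libraries. DESeq2 called 3164, 2974, 581, 148 and 568 genes in the same order, and 2 members between tdTomato- populations and 4 in the interaction. Fits to the compared libraries alone called 2 members and 300 genes within GFP+ cells, 1 gene between tdTomato- populations and 2 within Thy1.1+ cells. Between tdTomato- populations 98 genes were called with no filter and 122 with the stricter one (5 CPM in 2 libraries), and in the interaction 109 and 133. Without both GFP+ libraries numbered 3, chosen after seeing the data, 3 members and 210 genes were called in the interaction and 2 genes within Thy1.1+ cells. The cause was not tested.

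Signs that turned were of values that passed no test. Pkm within Thy1.1+ cells was at 0.01254 under library totals and ranged from -0.03038 to 0.01716 with 1 library left out, with Eno1 from -0.1672 to 0.04102 and Slc2a1 from -0.2111 to 0.1026. Without tdTomato- GFP+ library 3, Hk2 was at 0.7498 within GFP+ cells (range from -1.292) and at 0.383 in the interaction (from -1.674). Slc2a1 in the interaction ranged from -0.5501 to 0.004856. Without both GFP+ libraries numbered 3, Slc2a1 was at 0.0004405 between marked populations and 0.03648 in the interaction, and Hk2 at 0.7521 within GFP+ cells and 0.3851 in the interaction.

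The library numbers showed little pairing of the samples across genes. Deviations of same-numbered libraries correlated with r of 0.12 between the GFP+ populations and 0.1 between the Thy1.1+ populations. Those of odd- and even-numbered libraries correlated across reporters with r of 0.06 to 0.09. Such values cannot exclude shared mice or a batch that affects only some genes, and no label settles it. A replicate block on odd and even numbers called 7, 7, 0, 0 and 1 members and 39 genes between tdTomato- populations. A replicate block within each reporter called 2352 genes between tdTomato+ populations, 2039 within GFP+ cells and 78 between tdTomato- populations. Without a block these were 2074, 1768 and 23. In the interaction the block within each reporter called 1 member, Aldoa in place of Ldhb (edgeR adjusted p = 0.0471 and 0.0521). Hk2, at 1.55 to 10.8 CPM, is limited by scatter between libraries, with 497 and 122 counts in tdTomato- GFP+ cells. Eno2 is limited by low counts in tdTomato+ GFP+ cells, at 0 and 1.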
